A study of Papio anubis and Macaca fascicularis and Castor canadensis with 48 samples.

Results

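Glutathione S-transferases join glutathione, the main small thiol of cells, to reactive electrophiles, which makes these compounds more soluble and ready for export. Soluble forms fall into classes named by Greek letters, and a separate family of membrane proteins carries out the same reaction in the endoplasmic reticulum and the outer mitochondrial membrane. The liver is known as a main site of this detoxification, and the classes are used to different degrees by different organs.

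The genes described here are members of that family, listed by mouse Ensembl gene ID and chosen by their level in CPM (a gene's count as a share of its library's total, scaled to a total of 1 M; M, mega) over all 48 libraries of the series. Of 8 genes listed, 5 were followed among the 16816 genes counted: Gsta4 (ENSMUSG00000032348), Gstm5 (ENSMUSG00000004032), Gsto1 (ENSMUSG00000025068), Gstk1 (ENSMUSG00000029864) and Mgst1 (ENSMUSG00000008540). The listed gene IDs of Gstm1, Gstp1 and Gstt1 were not among the genes counted, so these genes were not analysed here. Since the levels themselves chose the genes, levels and fold changes are given as a description, and no p-value of a gene is used. All 5 passed the filter on low counts in each of the 13 comparisons, and 0 of their 240 values were 0.

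RNA sequencing libraries were made from frozen organs of 8 mammals, all labelled adult, male and wild type. Baboon (Papio anubis) gave 6 brain, 6 kidney and 6 liver libraries, and long-tailed macaque (Macaca fascicularis) gave 6 cerebellum, 5 kidney and 6 liver libraries. Beaver (Castor canadensis) gave 2 brains and 2 livers, and chipmunk (Tamias sibiricus) and sugar glider (Petaurus breviceps, a marsupial) gave 2 livers each. American black bear (Ursus americanus) gave 1 kidney and 1 liver, white-footed mouse (Peromyscus leucopus) 1 brain and 1 liver, and tube-nosed bat (Murina leucogaster) 1 liver. The 39 libraries of baboon, macaque and beaver came from a primate research center and the 9 others from an earlier collection, so species and collection cannot be told apart. The labels do not say that replicates are separate animals, so the spread between them may be partly technical.

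Total counts ran from 6.33 M to 26.8 M per library, and the 10 most counted genes held between 4.18% and 45.47% of them. Named markers of each organ could not be looked up, because no table used here pairs mouse gene IDs with names. In their place, 823 genes enriched in baboon liver (at least 2 log2 units above baboon brain and kidney, the 5 transferases left out) were summed. They held 27.3% to 61.0% of counts in the livers of the other species and at most 4.33% in any of their kidneys, brains and cerebella. Because a few genes fill so much of a liver library, all other genes read lower there in CPM. The fitted fold changes below therefore use TMM factors, which scale each library to the bulk of its genes; in the baboon comparison these averaged 0.517 in liver, 1.38 in kidney and 1.40 in brain. A fitted value is printed as log2 ± SE, and a gene is said to pass the threshold when its adjusted p in edgeR's quasi-likelihood test over all genes was under 0.05. That threshold serves for counts over all genes and to show where a call depends on the setting, and supports no difference of the 5 genes. In bulk tissue, fewer cells of a type and less RNA per cell cannot be told apart.

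Some liver libraries stood apart from others of their group over all genes, by the chi-square per degree of freedom between their counts. Baboon livers 5 and 6 differed from each other by 23.99 and from livers 1 to 4 by 107.7 to 140.2, while livers 1 to 4 differed among themselves by 31.92 to 63.71. Macaque livers 1 and 2 differed from each other by 70.75 and from the other macaque livers by 75.86 to 119.7. Those other 4 differed among themselves by 18.59 to 53.28, so livers 1 and 2 were not alike. Leaving out baboon livers 5 and 6 turned the sign of 2 small differences between baboon and macaque liver, given with those genes below. No other fitted sign turned without these livers or without macaque livers 1 and 2. CPM levels also depend on scaling. A level counted as moved when the change was at least the SD of its group. In the 5 groups of 1 library the margin of a 95% interval for counting error was used instead. That margin leaves out the spread between replicates, so those levels move easily. By this rule 55 of the 75 group levels moved with TMM scaling over all libraries. With the 10 most counted genes left out, 45 moved. White-footed mouse liver moved far: Gsta4 was 30.6 CPM and 96.5 with TMM scaling, and Mgst1 796 and 2507.

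**Figure D1:**
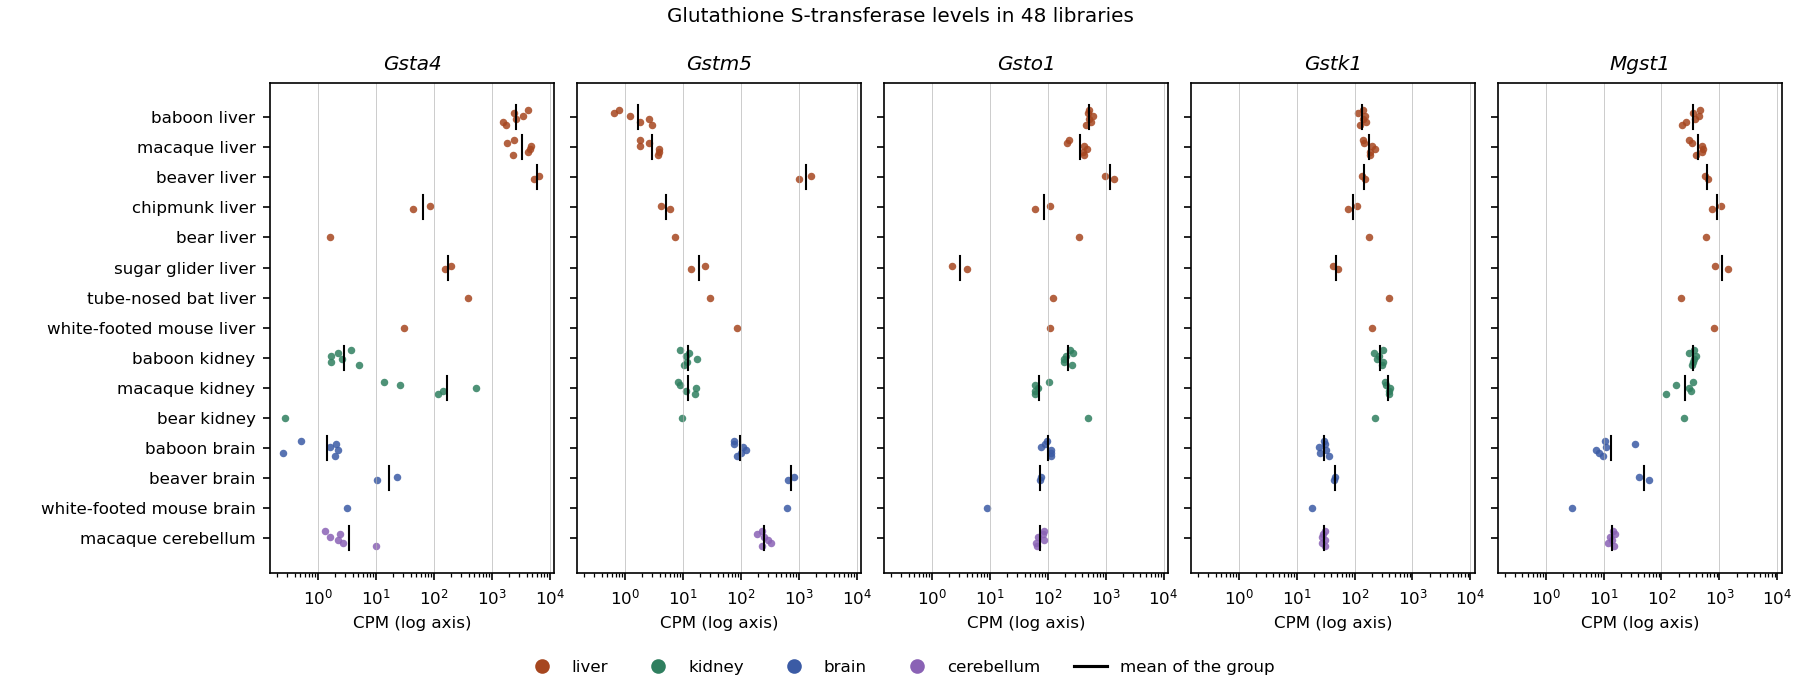
Level of each transferase in CPM (horizontal log axis) in all 48 libraries, by species and organ; each point is 1 library and each vertical bar the mean of a group of 2 or more. Gsta4 sits at 1584 or above in the baboon, macaque and beaver livers and at 394.5 or below in the other livers, while Gstm5 is lowest in the primate livers.

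Gsta4, the alpha-class enzyme known for conjugating 4-hydroxynonenal, a product of lipid peroxidation, had the widest range of levels of the 5 genes over the 48 libraries. In baboon liver it ran from 1584 to 4225 CPM with a median of 2504 (mean 2678 ± 1004, SD, n = 6), and in macaque liver from 1823 to 4764 with a median of 3321 (mean 3360.5 ± 1287, n = 6). The 2 beaver livers stood at 6505 and 5465 CPM, above every primate library. Tube-nosed bat liver had 394.5 CPM (exact 95% binomial interval 375.9 to 413.6, counting error only). Sugar glider livers had 197 and 156, chipmunk livers 87.9 and 43.5, and white-footed mouse liver 30.6 (interval 26.4 to 35.2). Bear liver was lowest at 1.60 CPM (0.829 to 2.80), which rests on 12 read pairs. The 14 livers from the primate center, at 1584 to 6505 CPM, did not overlap the 7 of the earlier collection, at 1.60 to 394.5. Neighbours in the order of livers whose libraries overlapped were baboon and macaque.

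Outside the liver Gsta4 was low, with 1 exception. Baboon kidneys held 1.71 to 5.17 CPM (median 2.46) and baboon brains 0.254 to 2.23 (median 1.82), so that every library of either organ was below every baboon liver. Bear liver lay within the range of the baboon brains. Fitted, baboon liver was 2518-fold above kidney (kidney against liver -11.30 ± 0.57) and 5070-fold above brain (-12.31 ± 0.59). Baboon brain against kidney differed by -1.01 ± 0.44, with overlapping libraries. In macaque cerebellum the level ran from 1.35 to 10.003 CPM (median 2.32), and liver was 2737-fold higher (-11.42 ± 1.02). Replicate 6 of the cerebellum alone stood above 2.75; without it the difference was -12.10 ± 1.05. Beaver brains had 22.9 and 10.4 CPM, 929-fold below the livers (-9.86 ± 0.58, or -10.54 ± 0.32 without brain replicate 1). In white-footed mouse, liver exceeded brain by a CPM ratio of 9.69 (95% interval 5.15 to 20.5; 17.8 with TMM scaling), and in bear, liver exceeded kidney by 5.83 (1.30 to 53.7, from 12 and 2 read pairs; 8.06 with TMM scaling). These single-library pairs have no replicate check.

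The exception was macaque kidney. Its 5 libraries read 13.7 CPM (replicate 1), 26.5 (replicate 2), 538 (replicate 3), 147 (replicate 5) and 121 (replicate 6), a mean of 169 ± 214. Replicates 1 and 2 lay in or near the range of the beaver brains, 10.4 to 22.9 CPM, so the exception rests on replicates 3, 5 and 6. All 5 macaque kidneys were above all 6 baboon kidneys, while in liver the 2 species overlapped. The kidney of baboon was 61.3-fold lower than that of macaque (-5.94 ± 0.87), and without macaque kidney replicate 3 the difference was -4.76 ± 0.62. In liver the same species contrast was -0.18 ± 0.31, and 0.09 ± 0.29 without baboon livers 5 and 6. The interaction, the kidney-to-liver difference of baboon minus that of macaque, was -5.74 ± 0.88. That value was -4.55 ± 0.69 without macaque kidney replicate 3, and -4.95 ± 0.74 with same-numbered libraries of a species blocked. Within macaque, kidney against liver was -5.56 ± 0.86, moving to -6.73 ± 0.82 without replicate 3 and -6.33 ± 0.79 with the block.

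Expressed against the mean of macaque liver, Gsta4 in the 5 macaque kidneys amounted to 0.407%, 0.789%, 16.02%, 4.36% and 3.599% in the order above. The summed share of the 823 liver-enriched genes in the same kidneys was 3.13%, 2.91%, 3.19%, 3.34% and 3.21%, with 60 to 82 of the 823 at 0. In the baboon kidneys that share was 2.77% to 3.36%, with 36 to 66 at 0. The liver-enriched sums of the 2 species overlapped. Gsta4 differed 39.3-fold between the lowest and highest macaque kidney. What part the liver-enriched genes have in these Gsta4 levels was not tested.

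**Figure D2:**
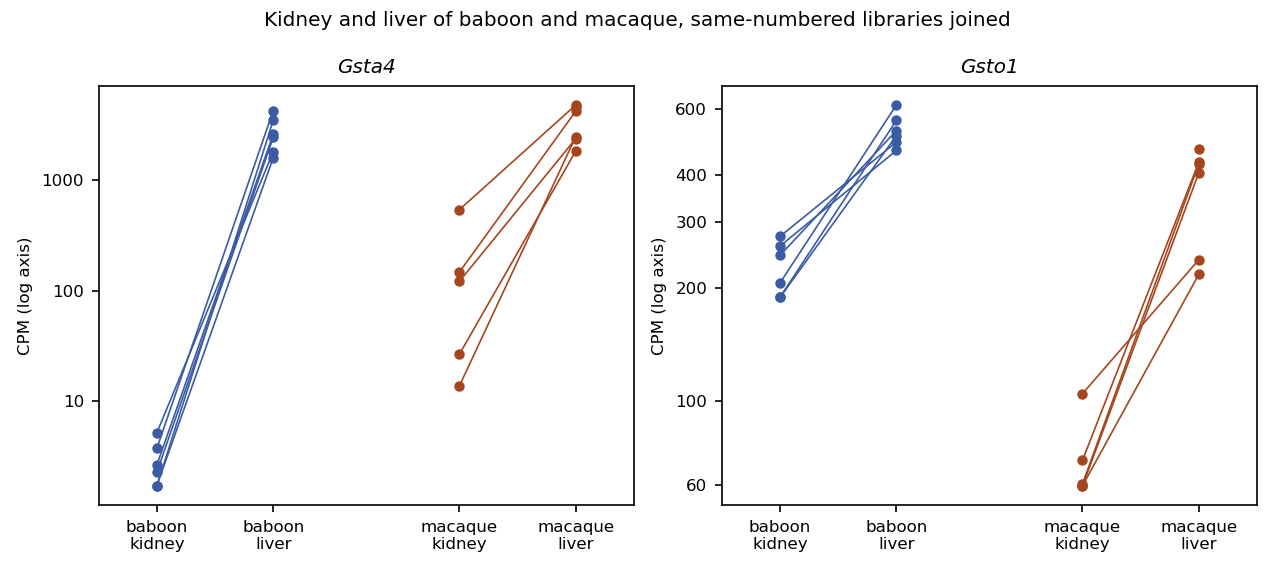
Gsta4 (left) and Gsto1 (right) in CPM (vertical log axis) in kidney and liver of baboon (blue) and macaque (red); points are libraries and lines join libraries with the same replicate number. Gsta4 is at 1.71 to 5.17 in baboon kidney and 13.7 to 538 in macaque kidney, whereas for Gsto1 the baboon kidneys, at 189 to 275, all lie above the macaque kidneys, at 59.6 to 105.

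Gstm5 belongs to the mu class, which includes forms known from brain and testis, and in the primates its organs stood in the reverse order. In baboon it ran from 76.6 to 124.8 CPM in brain (median 94.7, mean 96.4 ± 19.1), from 9.10 to 17.7 in kidney (median 11.7) and from 0.664 to 3.02 in liver (median 1.55). In macaque it ran from 190 to 334 in cerebellum (median 243, mean 258 ± 51.8), read 8.16, 8.83, 16.96, 11.5 and 16.4 in the kidneys, and ran from 1.85 to 3.96 in liver (median 3.20). In both species the 3 organs did not overlap in CPM: every brain or cerebellum was above every kidney, and every kidney above every liver. With TMM scaling, which raises the liver values, the kidneys and livers of macaque overlapped. Brain exceeded liver 21.3-fold in baboon (4.41 ± 0.29), and cerebellum exceeded liver 31.5-fold in macaque (4.98 ± 0.26). Kidney exceeded liver 2.71-fold in baboon (1.44 ± 0.27) and by 0.80 ± 0.24 in macaque. Between the 2 species, baboon against macaque, the fitted difference was -0.73 ± 0.36 in liver and -0.09 ± 0.21 in kidney, with overlapping libraries in both.

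White-footed mouse had the same direction, with 629.5 CPM in brain (602.1 to 657.7) and 87.7 in liver (80.5 to 95.2), a ratio of liver to brain of 0.139 (0.127 to 0.153; 0.256 with TMM scaling). Beaver did not. Its livers read 1623 and 1018 CPM and its brains 848 and 657, so both livers were above both brains, and the fitted difference of brain against liver was -2.18 ± 0.29. Beaver liver exceeded the primate livers by 9.11 ± 0.33 log2 units, or 552-fold, the largest difference between livers among the 5 genes in the comparisons made. Chipmunk, also a rodent, had 4.30 and 6.15 CPM in liver, 276-fold below beaver (-8.11 ± 0.71). Bear had 9.84 CPM in kidney and 7.35 in liver, a liver to kidney ratio of 0.748 (1.03 with TMM scaling) with an interval from 0.513 to 1.07 that includes equal levels. Bat liver stood at 29.2 CPM and sugar glider livers at 24.01 and 13.7.

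Near-identical copies are a known feature of the mu class, whose genes lie in a cluster. How reads that match several copies were counted, and how reads of 8 species were given to mouse gene IDs, was not given in any source used here. A Gstm5 level may thus hold reads of other mu-class genes, and this was not tested. The RefSeq annotation of baboon (Panubis1.0) lists 11 protein-coding genes with a GST or MGST symbol, of which 2 are GSTM genes (GSTM3 and GSTM4) and 1 is a GSTA gene (GSTA4). No gene named GSTM5 is listed there, but the search was by symbol alone. A matching baboon gene may be listed under another symbol, so which baboon gene the Gstm5 counts come from is not known here. The same limit bears on comparisons of a gene between species: differences in gene copies and in how well reads matched cannot be told apart from differences in RNA.

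**Figure D3:**
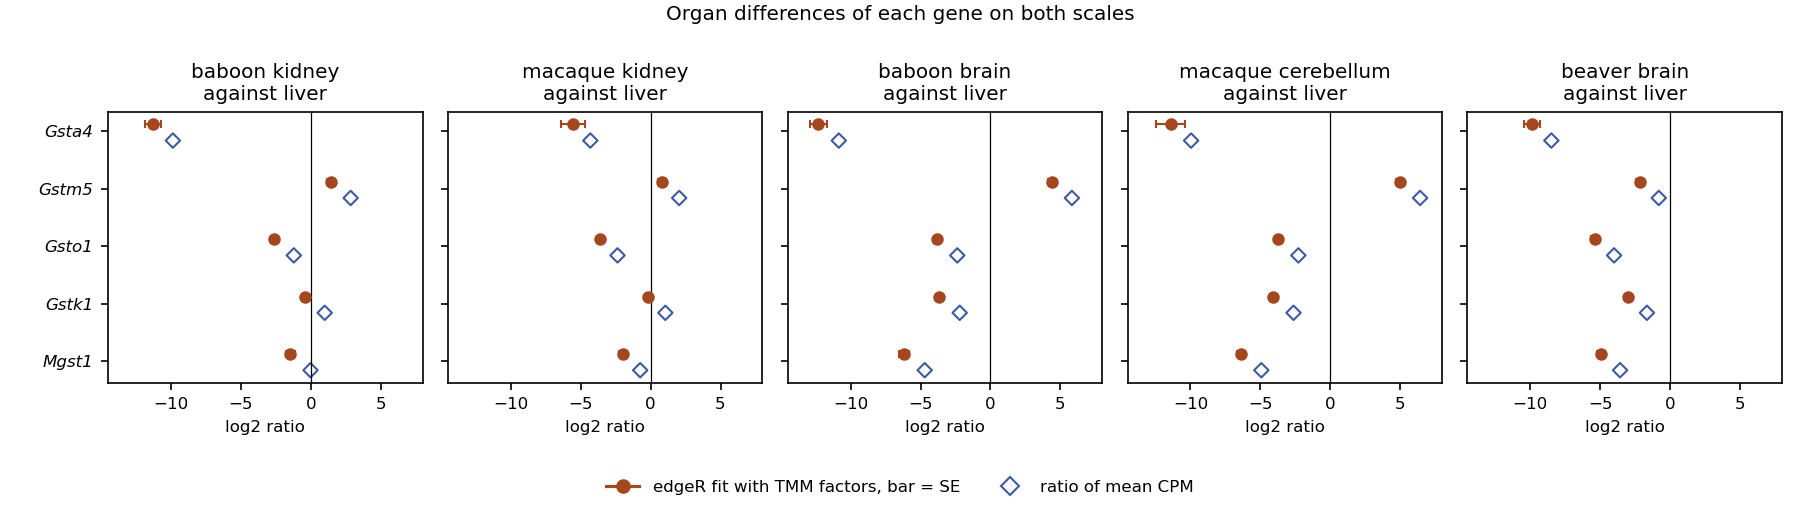
Log2 ratio of kidney, brain or cerebellum to liver for each gene (horizontal axis, 0 means equal) in baboon, macaque and beaver; filled circles are edgeR fits with TMM factors and their SE, open diamonds are ratios of mean CPM. Gstm5 lies right of 0 in both primates and left of 0 in beaver, and the diamonds of Gstk1 lie right of 0 for kidney where the circles lie left of it.

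Gsto1 is an omega-class enzyme, which acts more as a thioltransferase and dehydroascorbate reductase than as a conjugating enzyme. In the liver of baboon it ran from 465 to 614 CPM (median 517, mean 527 ± 53.3), and in the liver of macaque from 218 to 470 (median 417, mean 366 ± 109). Beaver livers held 997 and 1417, bear liver 351 (337.7 to 364.7), bat liver 124, white-footed mouse liver 109 and chipmunk livers 111 and 60.8. Sugar glider livers were far below at 2.26 and 4.00 CPM, from 28 and 48 counts. Against the mean of the placental livers, each species weighted equally, the sugar glider was lower by a factor of 119.5 (-6.90 ± 0.47), and no placental liver overlapped its range. Beaver was 2.58-fold above the primates (1.37 ± 0.26) and chipmunk 16.1-fold below beaver (-4.01 ± 0.42).

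Among the organs of baboon, Gsto1 was highest in liver, with kidney at 189 to 275 CPM (median 225.5) and brain at 77.2 to 117 (median 106), and the 3 organs did not overlap. Fitted, kidney was 6.21-fold below liver (-2.63 ± 0.15) and brain 14.1-fold below liver (-3.82 ± 0.16). In macaque the kidneys read 105, 59.7, 69.7, 59.6 and 60.3 CPM and the cerebella ran from 63.9 to 85.2 (median 74.9), so these 2 organs overlapped (cerebellum against kidney -0.12 ± 0.22) and both lay below liver. Kidney was 12.3-fold below liver there (-3.62 ± 0.25). Beaver brains, at 75.5 and 74.5, were 41.8-fold below the livers (-5.38 ± 0.28), and white-footed mouse brain, at 8.85 (5.88 to 12.8), was below its liver by a ratio of 12.4 (8.48 to 18.7; 22.7 with TMM scaling). Bear was the only species of the 5 with paired organs whose liver was not above the other organ in CPM, with 491 in kidney (475.3 to 507.6). Its liver to kidney ratio was 0.715 in CPM (0.679 to 0.752) and 0.988 with TMM scaling, so the difference depends on the scale.

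Baboon kidney exceeded macaque kidney 3.06-fold for Gsto1 (1.62 ± 0.19) with no overlap, and baboon liver exceeded macaque liver by 0.65 ± 0.20 with overlapping libraries, or by 0.39 ± 0.14 without macaque livers 1 and 2. The kidney-to-liver difference was 1.00 ± 0.28 higher in baboon than in macaque. With same-numbered libraries blocked it was 0.84 ± 0.32 and no longer passed the threshold. It also missed the threshold when any 1 of 8 libraries was left out, with values between 0.876 and 0.952: macaque kidney replicates 2, 5 and 6, macaque liver replicates 3, 4 and 6, and baboon liver replicates 4 and 6. Without baboon livers 5 and 6 together it was 0.91 ± 0.32, also missing the threshold. In the baboon annotation GSTO1 lies next to GSTO2, its close relative, and a share of reads between them could not be checked.

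Gstk1, the kappa-class enzyme of mitochondria and peroxisomes, was present at more than 40 CPM in every liver. It ran from 114 to 155 CPM in baboon (median 139), from 138 to 227 in macaque (median 188), and read 134 and 154 in beaver, 109 and 77.6 in chipmunk, 174 in bear, 197 in white-footed mouse, 388.6 in bat (370.3 to 407.7) and 42.8 and 52.5 in sugar glider. The sugar glider was 5.09-fold below the placental mean (-2.35 ± 0.24). Baboon and macaque liver differed by -0.28 ± 0.15, and beaver and the primates by -0.22 ± 0.20. Without macaque livers 1 and 2 the first was -0.43 ± 0.14. In brain and cerebellum it was low: 24.1 to 36.8 CPM in baboon brain (median 30.2), 27.3 to 31.1 in macaque cerebellum (median 29.4), 46.3 and 45.0 in beaver brain and 18.3 in white-footed mouse brain. These were below liver by 12.5-fold in baboon (-3.64 ± 0.14), 16.95-fold in macaque (-4.08 ± 0.13) and 8.18-fold in beaver (-3.03 ± 0.17), each with no overlap.

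For kidney against liver the direction of Gstk1 depended on the scale. Baboon kidneys ran from 218 to 312 CPM (median 279) and macaque kidneys read 339, 355, 403, 391 and 391, above every liver of their species. The ratio of mean CPM was 1.00 log2 units higher in kidney in baboon and 1.05 in macaque. With TMM factors kidney was below liver by -0.42 ± 0.13 in baboon and -0.20 ± 0.12 in macaque, and the libraries of both species overlapped on that scale. In bear the liver to kidney ratio was 0.764 in CPM (0.710 to 0.823) and 1.06 with TMM scaling, the same turn of direction. Between the species, baboon kidney was below macaque kidney by -0.52 ± 0.12, with no overlap in CPM, and this contrast of like organs did not turn.

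Mgst1 encodes a microsomal membrane enzyme that also reduces lipid hydroperoxides. Its levels in the livers of the earlier collection overlapped those of the primate center: 852 and 1389 CPM in sugar glider, 1055 and 732 in chipmunk, 796 in white-footed mouse (774.6 to 818.4), 575 in bear and 218 in bat (203.9 to 231.9). Beaver livers read 575 and 642, macaque livers ran from 302 to 513 (median 448, mean 427 ± 94.97) and baboon livers from 226 to 471 (median 365, mean 356 ± 94.3). The fitted contrasts of livers for Mgst1 were -0.12 ± 0.22 (baboon against macaque), 0.55 ± 0.27 (beaver against primates), 0.38 ± 0.37 (chipmunk against beaver) and 0.66 ± 0.27 (sugar glider against placentals). The first was 0.10 ± 0.18 without baboon livers 5 and 6, and the last 0.99 without sugar glider liver 1.

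In brain Mgst1 was low. Baboon brains ran from 7.53 to 34.9 CPM (median 10.2), with replicate 2 alone above 10.8, and macaque cerebella from 11.96 to 15.5 (median 14.3). Beaver brains read 41.2 and 60.6, and white-footed mouse brain 2.85 (1.30 to 5.40). Liver exceeded brain 72.2-fold in baboon (-6.17 ± 0.38) and 31.0-fold in beaver (-4.95 ± 0.27), and exceeded cerebellum 83.3-fold in macaque (-6.38 ± 0.27). The single mouse pair gave a liver to brain ratio of 280 (147 to 612; 514 with TMM scaling). Kidney was closer to liver: baboon kidneys ran from 301 to 401 CPM (median 353) and overlapped the livers, and macaque kidneys read 352, 181, 300, 321 and 120. In baboon the mean CPM ratio of kidney to liver was -0.02 on the log2 scale against -1.46 ± 0.31 with TMM factors, so the size of this difference rests on the scaling. In macaque it was -0.74 in CPM, with overlapping libraries, and -1.99 ± 0.24 with TMM factors. Kidney of baboon against macaque was 0.39 ± 0.23. In bear the liver to kidney ratio was 2.32 (2.19 to 2.45; 3.20 with TMM scaling).

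**Figure D4:**
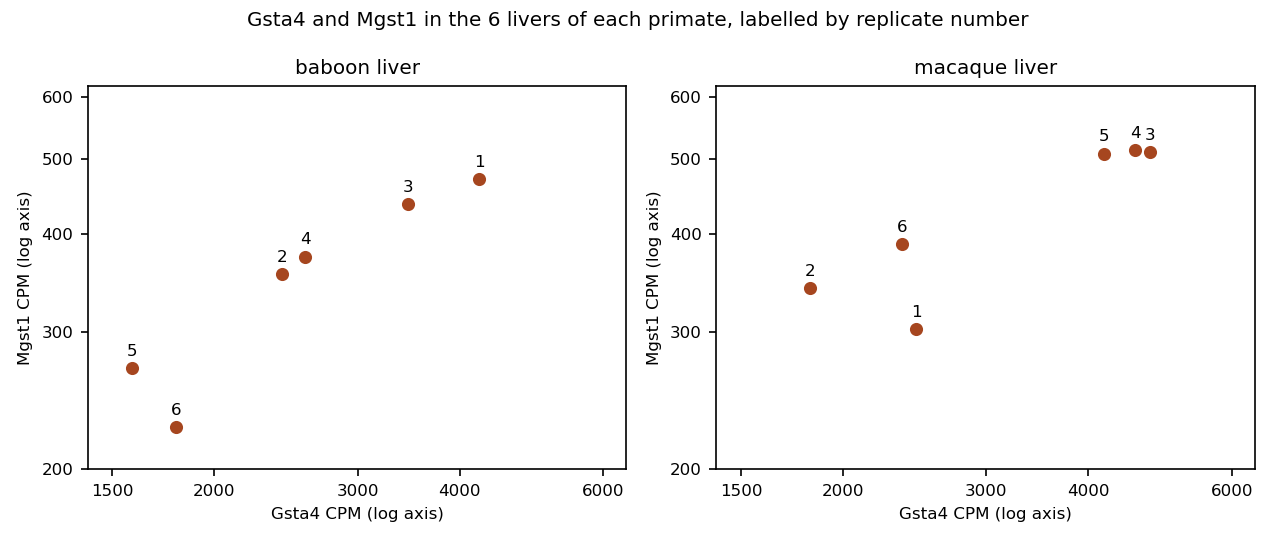
Mgst1 against Gsta4 in CPM (both log axes) in the 6 livers of baboon (left) and macaque (right), labelled by replicate number. In baboon both genes run from replicates 5 and 6 at the low end to replicate 1 at the high end, and in macaque replicates 3, 4 and 5 form an upper cluster for both.

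Within the livers of each primate, high Gsta4 stood with high Mgst1. In baboon, replicates 5 and 6, the livers that stood apart over all genes, were lowest in both, at 1584 and 1797 CPM of Gsta4 and 269 and 226 of Mgst1. The 10 most counted genes held 28.5% and 26.92% of counts in these livers, against 34.36% to 37.32% in replicates 1 to 4. Replicates 1 to 4 had 4225, 2424, 3453 and 2584 CPM of Gsta4 and 471, 355, 437 and 374 of Mgst1, the same order in both genes. In macaque, replicates 3, 4 and 5 had 4183 to 4764 CPM of Gsta4 and 507 to 513 of Mgst1, and replicates 1, 2 and 6 had 1823 to 2459 and 302 to 388. Of these, replicates 1 and 2 are the macaque livers that stood apart over all genes. Among replicates 1, 2 and 6 the order differed between the genes, and replicate 1 had the most Gsta4 but the least Mgst1. Because the livers of both species fell into separate clusters, no correlation is given. This pair was singled out after 50 relations (10 pairs of genes in 5 groups of 6 libraries) had been computed. It is not alone: Gstk1 also ran with Gsto1 in the livers of both species, and with Mgst1 in macaque liver.

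Across the 15 groups of species and organ, the levels of Mgst1 and Gstk1 were most alike (r = 0.695 of group means of log2(CPM + 1)), followed by Gstk1 and Gsto1 (0.564) and Gsta4 and Mgst1 (0.480). Gstm5 had negative values with each of the others, from -0.560 with Mgst1 to -0.153 with Gsta4. Among 11420 genes, those most like Gsta4 were ENSMUSG00000058921 (r = 0.893) and ENSMUSG00000026691 (0.839), and those most like Gstm5 were ENSMUSG00000033970 (0.893) and ENSMUSG00000096883 (0.862). Mgst1 was most like ENSMUSG00000038859 (0.954) and ENSMUSG00000001435 (0.945), Gstk1 like ENSMUSG00000014791 (0.905) and ENSMUSG00000044279 (0.904), and Gsto1 like ENSMUSG00000060002 (0.814) and ENSMUSG00000051439 (0.801). The groups share species, organs and collections, so these values describe the 15 points alone.

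Counted together, all 5 genes passed the threshold in 5 of the organ comparisons. These were baboon brain against liver, where 82.4% of all genes tested did, baboon kidney against liver (66.5%), baboon brain against kidney (77.3%), macaque cerebellum against liver (81.9%) and beaver brain against liver (64.4%), where all 5 were lower in brain. In macaque, 4 of 5 passed for kidney against liver (63.1% of all genes) and 4 of 5 for cerebellum against kidney (75.8%). Between baboon and macaque 1 of 5 passed in liver (24.8%), 3 of 5 in kidney (30.9%) and 2 of 5 for the kidney-to-liver difference (10%). In liver, 3 of 5 passed for beaver against primates (51.8%), 4 of 5 for chipmunk against beaver (40.7%) and 2 of 5 for sugar glider against placentals (50.8%). The levels that chose the genes come from the same libraries, so nothing is read from these counts. The median fitted log2 difference of the 5 genes ran from -4.95 (beaver brain against liver) to 0.89 (liver of beaver against primates) over the 13 comparisons. Over all genes tested it ran from -0.10 to 0.12, which TMM scaling holds near 0. Without sign, the medians of the 5 genes and of all genes were 0.89 and 0.92 in liver for beaver against primates. They were 1.02 and 1.17 for sugar glider against placentals, and 0.28 and 0.32 for baboon against macaque liver. In the other comparisons the 5 genes had the larger value.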

How the data were processed

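The authors deposited 1 table of raw counts per gene, not normalized, with a column for each of 48 libraries, all matched by name. The submitters' processing notes list STAR (read alignment) and featureCounts (counting per gene); versions, genome build and strand setting were not given in any source used here. Low counts (1 to 20) were even in 94.3% to 99.4% of cases per library, so 2 counts were taken as 1 read pair for intervals. CPM was computed from the deposited counts. Differences were fitted with edgeR 4.0.16 in R 4.3.3 (TMM factors, filterByExpr, two-sided quasi-likelihood F test, Benjamini-Hochberg adjustment over all genes tested, threshold 0.05), within baboon, macaque and beaver, between baboon and macaque in each organ with their interaction, and over 21 livers; a single library is assumed to vary like other groups. SE values come from the F statistic. Alternatives were DESeq2 1.42.0, other scaling factors, no low-count filter, halved counts, a replicate block, leaving out each replicate and, added after seeing the data, leaving out 2 baboon or 2 macaque livers together. On simulated data for baboon kidney against liver (11794 genes, 200 changed), 83% of 2-fold and 96% of 4-fold changes were recovered and 3.2% of calls were false. All simulated libraries had the baboon liver profile, with as many changes up as down. The simulation therefore does not test the scaling between organs of unlike composition.

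Same-numbered libraries deviated together in all 6 baboon kidney and liver pairs (r 0.117 to 0.371), all 5 macaque kidney and liver pairs (0.220 to 0.313) and all 5 macaque kidney and cerebellum pairs (0.114 to 0.157). Values of r were smaller with baboon brain and between macaque liver and cerebellum. There r passed 0.1 in 3 of 6 baboon brain and kidney pairs, 1 of 6 baboon brain and liver pairs and 1 of 6 macaque liver and cerebellum pairs. Even so, the best match had the same number in 5 of 6, 6 of 6 and 5 of 6 of these. In the 2 beaver brain and liver pairs r was 0.11. The numbers were taken as pairs in the replicate block only. The main fits have no block, so their SE values leave the pairing out. No 2 replicates were near-identical (lowest chi-square per degree of freedom 8.55). The genes described, the rule of naming all of them with the 2 most alike genes each (mean of at least 5 CPM), and the lists were chosen with earlier results of these data known. Lists of related pathway genes and of cell type markers, written as symbols, could not be matched to mouse gene IDs and were not tested.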

Additional observations from a re-analysis of the deposited data

Results flagged for a closer look

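Of 30 groups of libraries tested for a library far from the rest (the 5 genes in the 6 groups of 5 or 6 libraries), 4 held one. Chance alone gives about 1 in 20 if values are normally distributed. The rule was applied to CPM without logs, where high values stand out more, and all 4 were high values. Gsta4 in macaque kidney replicate 3 was 538.4 CPM, with the others at 13.7 to 146.7. Gsta4 in macaque cerebellum replicate 6 was 10.003 CPM, with the others at 1.35 to 2.75; the 823 liver-enriched genes summed to 1.55% of counts there, the highest of the 6 cerebella (1.22% to 1.55%), and their part in the value was not tested. Mgst1 in baboon brain replicate 2 was 34.91 CPM, with the others at 7.53 to 10.8; the same sum was 1.47% there, the highest of the 6 brains (1.01% to 1.47%), and its part was not tested. Gsto1 in macaque kidney replicate 1 was 104.9 CPM, with the others at 59.6 to 69.7.

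The interaction term, the kidney-to-liver difference of baboon minus that of macaque, was flagged for Gsta4 (-5.736) and Gsto1 (0.996) because both passed the threshold. The same levels chose the genes, so the calls show only their dependence on the setting and support no difference. With same-numbered libraries blocked Gsto1 was 0.843 and lost its call, as it did when any 1 of 8 libraries was left out, and Gsta4 was -4.95 and kept its call.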

How the results depend on the processing

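Of 262 counts of genes past the threshold under other settings, 260 stayed within 1.5 times the main count. The exceptions were beaver brain against liver, at 8576 genes with all libraries and 5519 to 8529 when 1 library was left out; both low counts, 5519 and 5522, leave a single beaver brain. Of 1310 fitted differences of the 5 genes, 9 moved by more than the spread between replicates and 0 reversed a called direction. By the rule given above, 100 of 150 group levels moved, where a single library was set against counting error alone. The sign of 4 uncalled differences was not stable: Gsta4 (-0.427 to 0.088) and Mgst1 (-0.298 to 0.105) in liver between baboon and macaque, Gstm5 in kidney between baboon and macaque (-0.201 to 0.064) and Gsto1 between macaque cerebellum and kidney (-0.193 to 0.066).

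With a replicate block, genes past the threshold numbered 11537, 9345 and 10897 in baboon (brain against liver, kidney against liver, brain against kidney), 11527, 8864 and 10704 in macaque (cerebellum against liver, kidney against liver, cerebellum against kidney), 1415 for the kidney-to-liver difference and 8121 in beaver. Among the 5 genes the block changed the call of Gsto1 in the kidney-to-liver difference and no other.

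Calls were lost for Gsta4 in baboon brain against kidney under 6 settings and in beaver against primates under 7, for Gsto1 in liver between baboon and macaque under 6 and for its kidney-to-liver difference under 10, and for Gstk1 in chipmunk against beaver under 2. Calls were gained for sugar glider against placentals (Gsta4 under 6, Mgst1 under 3) and for Gstk1 without macaque livers 1 and 2 (kidney against liver in macaque, liver between baboon and macaque). Leaving out baboon livers 5 and 6, or macaque livers 1 and 2, was chosen after seeing the data. Upper-quartile factors moved the median of all genes for kidney against liver from 0.058 to 0.175 in baboon and from 0.023 to 0.143 in macaque; Gstk1 was -0.31 and -0.08 there.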
